A study of Homo sapiens with 6 samples.

Results

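The genes described here are 8 regulators and adhesion molecules of the kidney lineage, measured in the cell line 786-O, which derives from a human clear cell carcinoma of the kidney. They are the transcription factors PAX8, PAX2, HNF4A, LHX1, EMX2 and WT1 and the cadherins CDH6 and CDH16. They were chosen by gene symbol, and all 8 were found among the 25987 named genes of the count table. The copper group was 3 cultures of cells adapted to copper sulfate bound to serum proteins, labelled 30, 31 and 32 uM in replicates 1, 2 and 3, and the series text gives 30 uM. The control group was 3 cultures whose serum was handled alike with no copper added. Both groups were wild type 786-O cells in DMEM/F12 with 10% serum, so all 6 libraries share the line's known lack of functional VHL. The length of the adaptation is not given in the sources used here. The labels do not say that replicates came from separate adaptations, so p-values measure only the spread between these samples, which may be technical.

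PAX8 and PAX2 are paired-box transcription factors that act early and partly redundantly in forming the nephron, and PAX8 protein is a standard marker of tumours of renal origin. LHX1, a LIM homeodomain factor, acts beside them in the intermediate mesoderm and early nephron, EMX2 is a homeodomain factor of the ureteric bud, and WT1 is a zinc finger factor of nephron progenitors and later of podocytes. HNF4A is a nuclear receptor of the differentiated proximal tubule. CDH6 (K-cadherin) and CDH16 (Ksp-cadherin) are calcium-dependent adhesion molecules, CDH6 of the developing nephron and of renal carcinoma and CDH16 of mature tubule epithelium.

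PAX8 and PAX2 are paralogues, and their start regions are shown because the groups overlapped for PAX8 and not for PAX2. Each is the 250 bases before a RefSeq start (GRCh38.p14) at the end of the deposited gene span, 5′ to 3′ on the gene's strand, at chr2:113278922-113279171 (minus strand) for PAX8 and chr10:100735146-100735395 (plus strand) for PAX2.
PAX8: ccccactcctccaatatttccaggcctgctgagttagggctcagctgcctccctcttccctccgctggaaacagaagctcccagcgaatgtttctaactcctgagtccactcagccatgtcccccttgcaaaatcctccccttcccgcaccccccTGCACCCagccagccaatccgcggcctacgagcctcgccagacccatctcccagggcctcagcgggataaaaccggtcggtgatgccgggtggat
PAX2: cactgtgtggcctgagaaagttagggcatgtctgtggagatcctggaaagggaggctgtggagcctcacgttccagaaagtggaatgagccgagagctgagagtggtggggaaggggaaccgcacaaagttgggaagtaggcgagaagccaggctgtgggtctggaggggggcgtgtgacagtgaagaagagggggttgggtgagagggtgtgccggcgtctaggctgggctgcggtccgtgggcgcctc
Capitals mark matches, on either strand, to the core of the metal response element (TGCACNC or TGCGCNC), bound by the metal sensor MTF1, or of the antioxidant response element (TGACNNNGC), bound by the oxidative stress factor NRF2. The PAX8 window held 1 match, TGCACNC from 95 to 89 bases before the start, and the PAX2 window shown held 0 matches to the 3 patterns. A window before another RefSeq start of PAX2, at 100745582, is not shown and also held 0 matches. Of 35116 windows of this length, 9.87% held TGCACNC, 16.8% TGCGCNC and 10.9% TGACNNNGC, so each pattern is common. A match describes the letters only. Entries were found for 5 of the 8 genes (PAX8, PAX2, HNF4A, EMX2 and WT1).

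The libraries held from 16301772 to 25079913 counts, and 12944 genes passed the filter on low counts and were tested. Replicate 3 stood apart from replicates 1 and 2 in both groups along the first principal component, which carried 57.9% of the variance, at 41.2 in copper and 17.6 in control against -17.6 to -11.7 for the other 4 libraries. The label 786-O was checked against 8 genes. VIM, EPAS1, NNMT, MME, KRT8, KRT18 and PAX8 were at 29.3 CPM (counts scaled to library size by TMM) or more in every library, while CA9 had at most 2 counts. Of 17 markers of leukocytes, endothelium, fibroblasts and other epithelia, 14 were under 1 CPM in every library, and their summed level was 8.17 to 10.6 CPM in copper and 8.57 to 13.9 CPM in control. Of these 17, 3 were tested, and COL1A1 and LUM among them ran in opposite directions. COL1A1 was at 3.42 ± 1.23 CPM in copper and 6.53 ± 2.43 in control (SD, n = 3; log2 fold change -0.90, edgeR p 0.0376, adjusted p 1.00, with the block 0.13). LUM was at 3.47 CPM in copper and 2.40 in control (log2 fold change 0.51, adjusted p 1.00). KDR, the only other of the 17 to reach 1 CPM in any library, had a lower mean in copper, at 0.661 CPM against 0.918 in control. TTF1 was left out of that sum, since the gene of this symbol is the widely expressed transcription termination factor.

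Of the 8 genes, 6 passed the filter, and HNF4A and EMX2 did not. By edgeR's quasi-likelihood test 0 of the 6 differed between copper and control at a Benjamini-Hochberg adjusted p under 0.05 over all tested genes, where 0 of 12944 genes (0.0%) were called. With replicate number as a block, which called 0.17% of all genes, and with DESeq2, which called 0.209%, the count for the 6 was also 0. At an unadjusted p under 0.05 there were 2 of the 6, LHX1 and PAX2, against 3.52% of all tested genes. With the block there were 3, LHX1, PAX2 and CDH6, against 8.41%. The copper and control libraries did not overlap for 2 of the 6, LHX1 and PAX2, where 10.8% of all genes did not overlap. Both were higher in copper, as were 5.45% of all genes, and 0 of the 6 lay wholly lower in copper, against 5.35%.

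Per kilobase of exon, a scale for setting genes against each other, PAX8 had the highest level of the 8. HNF4A and EMX2, with almost no counts, had the lowest. The exon lengths came from another source than the counts and need not equal the counted lengths. The deposited span of CDH6 ended 9766 bases short of RefSeq, so its counted length may be shorter and its level higher. In CPM the mean of CDH6 was above that of PAX8, at 166.5 against 133.0 in copper and 195.6 against 138.6 in control. The order of PAX8 and CDH6 therefore rests on the lengths used. PAX8 stood at 31.4 ± 2.28 CPM per kilobase in copper and 32.7 ± 2.91 in control (SD, n = 3). CDH6 followed with 18.7 ± 7.40 in copper and 22.0 ± 7.50 in control, then WT1 with 9.60 ± 1.47 and 9.89 ± 0.27. LHX1 was at 5.01 ± 0.68 and 3.98 ± 0.088, PAX2 at 2.04 ± 0.093 and 1.60 ± 0.22, and CDH16 at 0.728 ± 0.15 and 0.952 ± 0.38. The order of mean levels of these 6 was the same in both groups, and also when the longest transcript from the same source of exons was used as the length. Neighbours overlapped in 2 places among the 6. CDH6 and WT1 did so in copper, through CDH6 in replicate 3, and PAX2 and CDH16 in control, where the highest CDH16 value and the lowest PAX2 value were both 1.34. PAX8 exceeded its paralogue in every library, and PAX2 supplied from 3.68% to 6.83% of their summed counts.

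**Figure D1:**
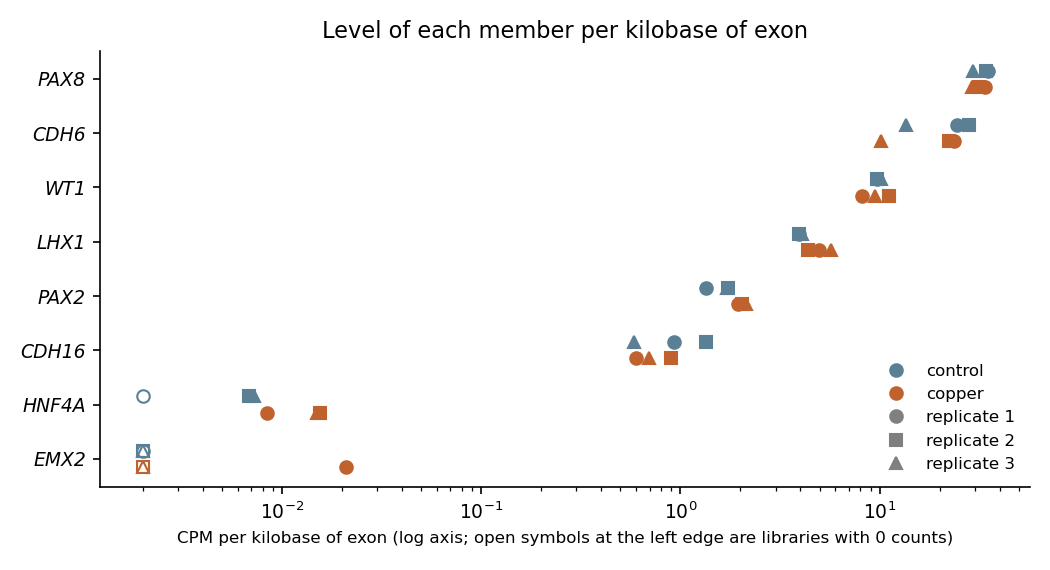
Level of each of the 8 genes in CPM per kilobase of exon (log axis), 1 symbol per library, with shape for the replicate number and colour for the group. PAX8 and CDH6 have the highest levels, while HNF4A and EMX2 lie far below the other 6, with open symbols for libraries without a count.

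HNF4A and EMX2 RNA were near the limit of detection. HNF4A (Entrez 3172; chromosome 20, 44355699 to 44434595, plus strand) had 1, 2 and 2 counts in copper and 0, 1 and 1 in control. EMX2 (Entrez 2018; chromosome 10, 117542445 to 117549546, plus strand) had 1 count in copper replicate 1 and 0 in the other 5 libraries. The detection limit was set at 3 counts (the one-sided 95% limit for a count of 0), which is 0.121 to 0.183 CPM in these libraries, so every value of both genes lay under it and no fold change was computed. Over all 6 libraries HNF4A had 7 counts, for which the upper bound of the two-sided exact 95% Poisson interval is 0.123 CPM, and EMX2 had 1 count with an upper bound of 0.0476 CPM. These bounds cover counting error only. Antisense RNAs at the 2 loci were as low, with at most 2 counts of EMX2OS and 1 count of HNF4A-AS1 in any library. A copper effect on either gene was not measurable at this depth.

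PAX8 RNA was abundant and close to level across the groups. PAX8 (Entrez 7849; chromosome 2, 113215997 to 113278921, minus strand) was at 142, 134 and 123 CPM in copper replicates 1, 2 and 3 and at 147, 144 and 124 CPM in control. The groups overlapped, and the lowest library of each was replicate 3. The log2 fold change was -0.06 (SE 0.11), with a 95% interval from -0.31 to 0.19, which corresponds to 0.809-fold to 1.14-fold. Its adjusted p by edgeR was 1.00. Since these are bulk cultures, fewer cells expressing a gene and less RNA per cell cannot be told apart.

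The antisense RNA PAX8-AS1 (Entrez 654433; 113235527 to 113240842 on the plus strand) lies wholly within the PAX8 span, an overlap of 5316 bases. Whether counting used strand is not stated, so reads of the pair may not be fully parted. It was at 16.9, 16.7 and 12.1 CPM in copper and 19.2, 18.8 and 15.9 CPM in control. Copper was below control in each of the 3 replicate pairs, but the groups overlapped. Its log2 fold change was -0.24 (SE 0.16; edgeR adjusted p 1.00), and -0.10 without copper replicate 3. PAX8-AS1 supplied 8.99% to 11.1% of the pair's counts in copper and 11.3% to 11.5% in control.

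PAX2 RNA was low, and its copper libraries lay above its control libraries. PAX2 (Entrez 5076; chromosome 10, 100735396 to 100829944, plus strand) was at 8.23, 8.58 and 9.01 CPM in copper and 5.63, 7.30 and 7.23 CPM in control. The groups did not overlap, and control replicate 1 was the lowest of all. The log2 fold change was 0.36 (SE 0.15; 95% interval -0.0034 to 0.71), or 1.28-fold, with an edgeR p of 0.0494 and an adjusted p of 1.00, and it was 0.24 without control replicate 1. The interval is approximate, as described under processing, so it can include 0 beside a p under 0.05. In replicates 1, 2 and 3 the difference was 0.54, 0.23 and 0.31 on the log2 scale. From 135 to 167 counts per library stood behind these values, a counting error of 7.74% to 8.61% of each. At the narrowest point the gap was within counting error: the exact Poisson intervals of copper replicate 1 (6.90 to 9.74 CPM) and control replicate 2 (6.18 to 8.58 CPM) overlapped.

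LHX1 showed the same order of groups. LHX1 (Entrez 3975; chromosome 17, 36937475 to 36944612, plus strand) was at 17.0, 14.9 and 19.6 CPM in copper and 13.5, 13.4 and 13.99 CPM in control. The groups did not overlap. The control libraries lay close together, while the copper libraries were spread, with replicate 3 highest. As for PAX2, the gap at its narrowest point was within counting error. The exact Poisson intervals of copper replicate 2 (13.2 to 16.8 CPM) and control replicate 3 (12.4 to 15.8 CPM) overlapped. The log2 fold change was 0.33 (SE 0.13; 95% interval 0.03 to 0.63), or 1.26-fold, with an edgeR p of 0.036 and an adjusted p of 1.00. The differences in replicates 1, 2 and 3 were 0.33, 0.15 and 0.48 on the log2 scale.

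The divergent transcript LHX1-DT (Entrez 102723471; 36932109 to 36936661 on the minus strand), whose deposited span ends 813 bases from that of LHX1 and 123 bases from the RefSeq start of LHX1, also did not overlap between groups. It was at 10.3, 10.3 and 10.2 CPM in copper and 8.81, 8.78 and 8.07 CPM in control. These values rest on 169, 183 and 189 counts in copper and 219, 179 and 154 in control. Whether the gap exceeded counting error was not tested. The fitted log2 fold change was 0.26 (SE 0.12; edgeR p 0.0627, adjusted p 1.00), with differences of 0.22, 0.22 and 0.33 in the 3 replicate pairs. Since the groups overlapped for neither, LHX1 and LHX1-DT were both higher in copper however the libraries are paired, with neither called. LHX1-DT made up 34.2% to 40.8% of the pair's counts in copper and 36.6% to 39.5% in control.

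WT1 RNA was at a middle level with no common direction. WT1 (Entrez 7490; chromosome 11, 32387776 to 32430817, minus strand) was at 27.9, 37.9 and 32.4 CPM in copper and 33.1, 33.2 and 34.7 CPM in control. The copper libraries lay on both sides of the control libraries. The log2 fold change was -0.04 (SE 0.13; 95% interval -0.34 to 0.25; edgeR adjusted p 1.00), and the differences in the 3 replicate pairs were -0.25, 0.19 and -0.10. The deposited span ends 4722 bases short of the end of WT1 in RefSeq, on the side where transcription starts. The deposited spans of CDH6 and LHX1 also fell short of RefSeq, by 9766 bases at the end of CDH6, and at the start of LHX1.

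The antisense RNA WT1-AS (32435518 to 32437054, plus strand) had 61 to 119 counts per library and a log2 fold change of -0.10 (SE 0.22; edgeR adjusted p 1.00). It was highest in replicate 3 of both groups, at 5.72 CPM in copper and 6.23 CPM in control, against 3.72 to 4.82 CPM in the other 4 libraries.

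**Figure D2:**
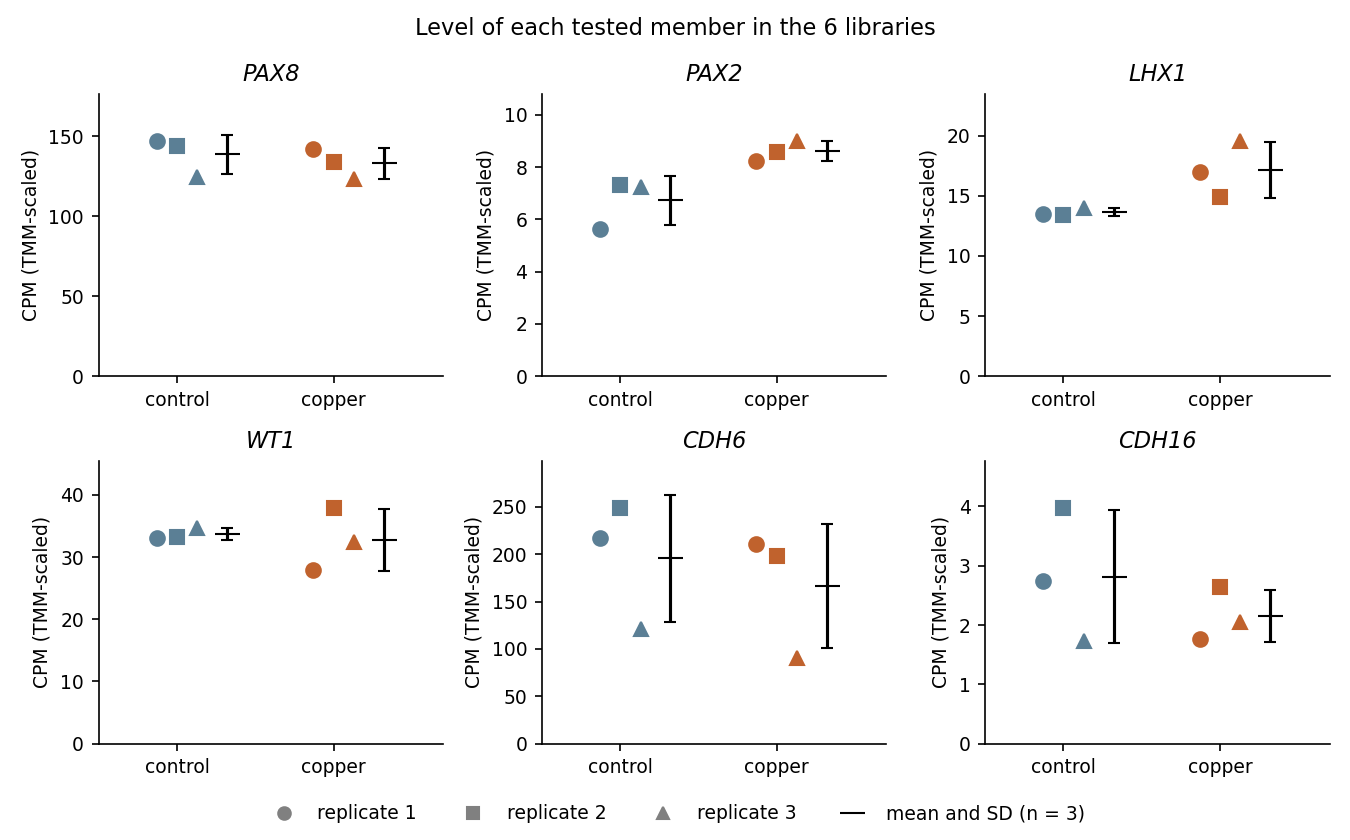
CPM of the 6 tested genes in each library, by group, with symbols for replicate number and the mean with SD (n = 3) beside each group; every axis starts at 0. PAX2 and LHX1 are the 2 panels in which the groups do not overlap, and CDH6 is lowest in replicate 3 of both groups.

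CDH6 RNA was spread widely within each group, with replicate 3 low in both. CDH6 (Entrez 1004; chromosome 5, 31193686 to 31319380, plus strand) was at 211, 198 and 90.8 CPM in copper replicates 1, 2 and 3 and at 217, 249 and 121 CPM in control. Replicate 3 held 44.4% of the mean of replicates 1 and 2 in copper and 51.8% in control, or -1.17 and -0.95 on the log2 scale. Of the 12944 tested genes, 32 (0.247%, CDH6 included) lay at least as far below replicates 1 and 2 in both groups as the smaller of those distances. What set replicate 3 apart was not tested.

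Between copper and control the log2 fold change of CDH6 was -0.23 (SE 0.36; 95% interval -1.07 to 0.61; edgeR adjusted p 1.00), and the groups overlapped. In replicates 1, 2 and 3 the difference was -0.04, -0.33 and -0.41. With the replicate block the estimate was -0.26 (SE 0.096; 95% interval -0.48 to -0.04), with a p of 0.0263 and an adjusted p by edgeR of 0.536. Without copper replicate 3 the estimate from the fit with group only was 0.06, and without control replicate 3 it was -0.49.

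CDH16 was the least abundant of the 6, and its libraries scattered widely. CDH16 (Entrez 1014; chromosome 16, 66908122 to 66918885, minus strand) had 29, 47 and 38 counts in copper and 68, 81 and 33 in control. In the same order these were 1.77, 2.64 and 2.05 CPM in copper and 2.73, 3.97 and 1.73 CPM in control, with a counting error of 11.1% to 18.6%. The groups overlapped, and control replicate 3 was the lowest of the 6 libraries. The log2 fold change was -0.37 (SE 0.33; 95% interval -1.14 to 0.40; edgeR adjusted p 1.00). The differences were -0.60 and -0.57 in replicates 1 and 2 and 0.23 in replicate 3. The estimate was -0.61 without control replicate 3, -0.06 without control replicate 2 and -0.56 in replicates 1 and 2 alone (edgeR adjusted p 0.409).

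**Figure D3:**
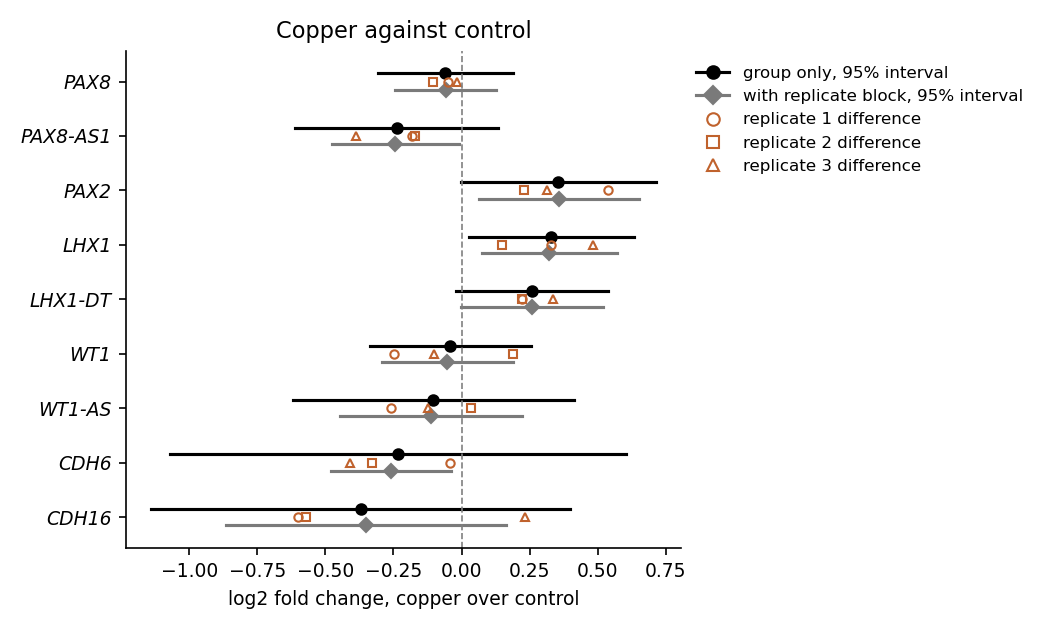
Log2 fold change of copper over control for the 6 tested genes and 3 partner RNAs, with 95% intervals from the fit with group only (circles) and with the replicate block (diamonds), and the difference within each replicate number as open symbols. The 3 replicate differences of PAX2, LHX1 and LHX1-DT all lie above 0 and those of PAX8, PAX8-AS1 and CDH6 all below 0, while those of WT1, WT1-AS and CDH16 lie on both sides. For PAX2, LHX1 and LHX1-DT this follows from groups that do not overlap. The share of all tested genes with a common sign was not counted.

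Across the 6 genes, replicate 3 was the lowest library of both groups for PAX8 and CDH6, where 29.5% of all tested genes showed this. It was the highest of both groups for LHX1, where 30.0% of all tested genes did. CDH16 was low in replicate 3 of control only, at -0.89 against replicates 1 and 2 on the log2 scale, beside -0.07 in copper. GFRA1, the co-receptor of the ligand GDNF, had the highest mean CPM on the list of other renal regulators. In replicate 3 it resembled CDH6, at -1.26 in copper and -0.64 in control. The water channel AQP1 of the proximal tubule was at 1.43 and 0.60, the opposite way.

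**Figure D4:**
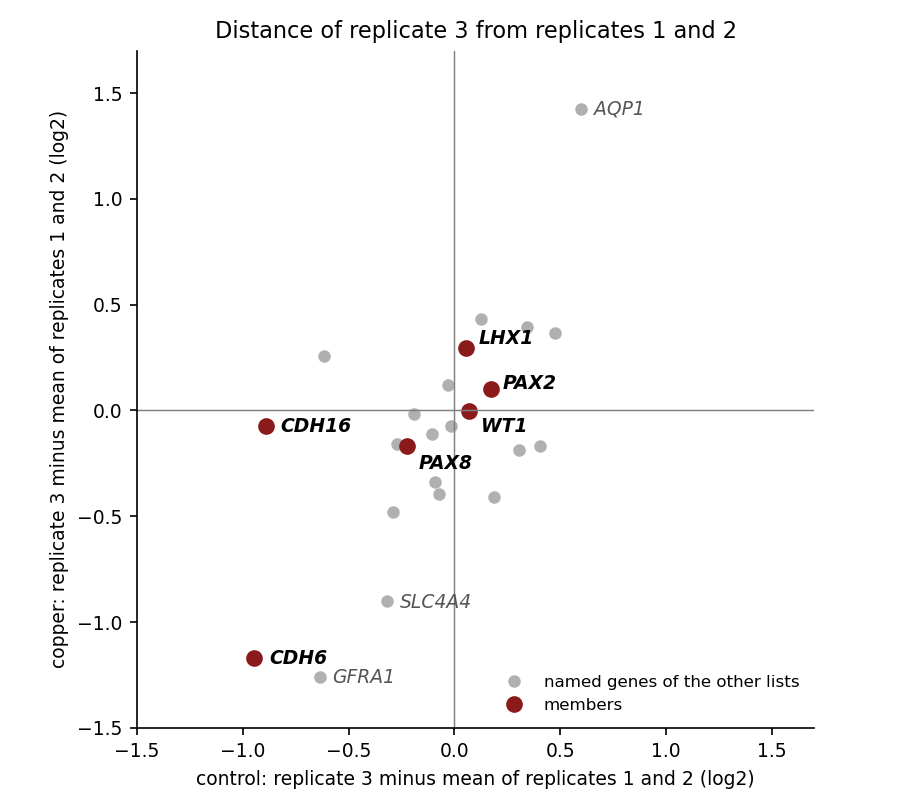
Distance of replicate 3 from the mean of replicates 1 and 2 on the log2 scale, with control on the horizontal and copper on the vertical axis, for the 6 tested genes (dark) and the 18 named genes of the other kidney lists (grey). CDH6 lies at -0.95 in control and -1.17 in copper, near GFRA1, and CDH16 at -0.89 in control and -0.07 in copper.

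Among other regulators of kidney development, 0 were called between copper and control, with or without the block. Of 48 such genes 24 were tested, 12 with a log2 fold change above 0 and 12 below, and 0 had an unadjusted p under 0.05. Their median was -0.01, beside -0.05 for the 6 genes above and 0.01 for all tested genes. The smallest p-values belonged to the homeodomain factors MEIS1, SIX4 and HOXA11, with log2 fold changes of -0.40 (SE 0.21), -0.30 (SE 0.16) and 0.23 (SE 0.16). For SIX4 it was -0.17 without copper replicate 3. HOXD10, another homeodomain factor, was at 37.0 ± 6.07 CPM in copper and 43.1 ± 8.65 CPM in control (SD, n = 3), and its log2 value was -0.22 (SE 0.18), -0.04 without control replicate 3, -0.12 without copper replicate 1 and -0.35 without copper replicate 3. GFRA1 was at 328 ± 138 and 350 ± 114 CPM (log2 fold change -0.09, SE 0.36), and EYA3, a transcriptional coactivator and phosphatase, at 74.7 ± 10.1 and 80.9 ± 3.73 CPM (log2 fold change -0.12, SE 0.12). The edgeR adjusted p was 1.00 for each of the 24.

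Among other cadherins and catenins, 11 of 29 genes were tested, 4 above 0 and 7 below, with a median of -0.06 and 0 called. At an unadjusted p under 0.05 there was 1 of the 11, against 3.52% of all tested genes. The groups did not overlap for 2 of the 11, against 10.8%. The mesenchymal cadherin CDH11 did not overlap between groups, at 0.731 to 1.18 CPM in copper and 1.31 to 2.65 CPM in control. Its log2 fold change was -0.80 (SE 0.35; edgeR p 0.0399, adjusted p 1.00), and -0.48 without control replicate 2. Of the matrix genes given above, the mean of COL1A1 was also lower in copper and that of LUM was higher, with overlapping groups for both. Any relation of either to CDH11 was not tested. CTNND1, the p120 catenin that holds cadherins at the membrane, did not overlap either, though its groups met at 14.5 CPM, with 13.7 as the lowest copper value and 17.5 CPM as the highest control value, a log2 fold change of -0.17 (SE 0.12). For CDH13, a cadherin without a cytoplasmic tail, the groups overlapped and the log2 fold change was 0.29 (SE 0.18), or 0.12 without control replicate 2. N-cadherin (CDH2), at 412 ± 62.0 CPM in copper and 464 ± 13.6 CPM in control, had one of -0.17 (SE 0.13). CTNNA1, the alpha-catenin linking cadherins to actin, and CTNNAL1 were at -0.06 (SE 0.093) and 0.08 (SE 0.096). E-cadherin (CDH1) was among the 18 genes of this list that did not pass the filter.

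Genes of differentiated tubule and glomerulus gave 9 values above 0 and 9 below among the 18 tested of 48 listed, with a median of -0.03 and 0 called. At an unadjusted p under 0.05 there were 2 of the 18, against 3.52% of all tested genes. The groups did not overlap for 2 of the 18, against 10.8%. VCAM1, an adhesion molecule that marks injured proximal tubule, did not overlap, at 42.6 to 61.2 CPM in copper and 29.3 to 37.4 CPM in control. The difference was 0.60 on the log2 scale (SE 0.17; edgeR p 0.00743, adjusted p 1.00; with the block 0.321). EPCAM, an epithelial adhesion molecule, was at 1.40 to 1.71 CPM in copper and 0.838 to 1.21 CPM in control, without overlap (log2 fold change 0.58, SE 0.26). AQP1 was at 1.71 to 5.88 CPM in copper and 3.78 to 8.02 CPM in control, which overlapped, with a log2 fold change of -0.87 (SE 0.46). It was -1.49 without copper replicate 3 and -0.56 without copper replicate 1. With the block it was -0.93 (SE 0.21; edgeR adjusted p 0.242). The 3 genes with the highest mean CPM, not divided by length, were SYNPO, DPP4 and SLC4A4. SYNPO, an actin-associated protein of podocytes, had a log2 fold change of -0.10 (SE 0.17). The brush border peptidase DPP4 was at 0.0036 (SE 0.17) and the bicarbonate cotransporter SLC4A4 at 0.10 (SE 0.24).

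**Figure D5:**
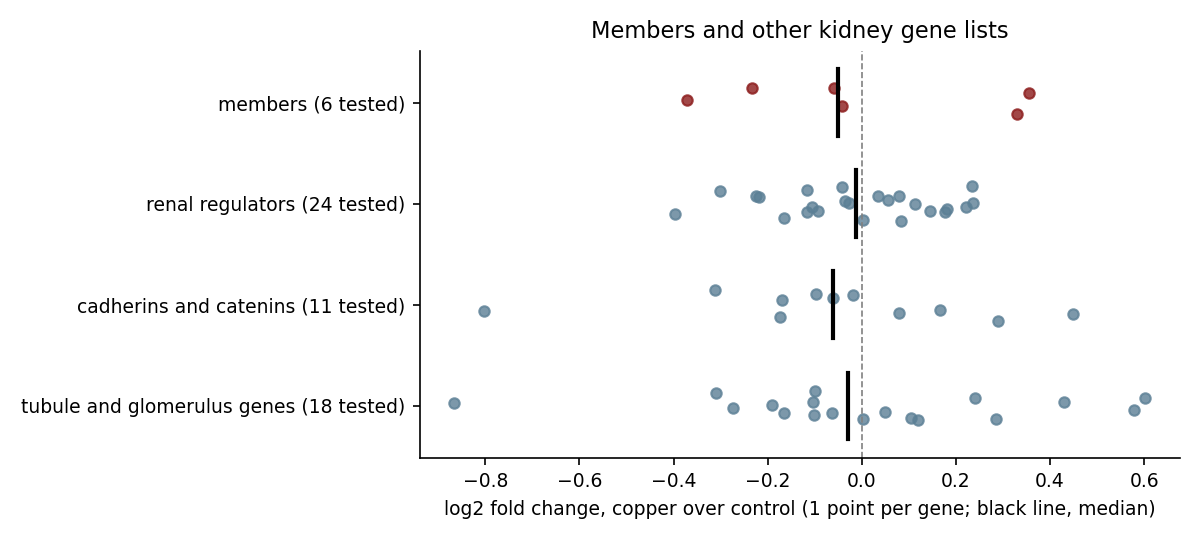
Log2 fold change of copper over control, 1 point per tested gene, for the 6 genes described above and 3 other kidney lists, with the median of each list as a black line. The medians lie between -0.06 and -0.01, and the points of each list fall on both sides of 0.

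The gene most like each of the 6 was taken as the gene, of 10291 with at least 5 CPM, whose log2 profile over the 6 libraries, centred on its own mean, had the smallest root mean square difference from that of the member. For CDH6, whose profile ranged over 1.45 on the log2 scale, it was PDZK1, a scaffold protein of the proximal tubule brush border that is also on the tubule list, at a difference of 0.07. For CDH16, with a range of 1.15, it was the bradykinin receptor BDKRB1 at 0.16. For LHX1 it was NDUFAF1 at 0.04 and for PAX2 DNASE2 at 0.06, with member ranges of 0.54 and 0.67. For PAX8 it was ZDHHC5 at 0.02 and for WT1 ZNF382 at 0.04, with ranges of 0.26 and 0.44. These are descriptions over 6 libraries, with no test.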

How the data were processed

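RNA of 6 cultures was sequenced with a directional library kit, as the labels state. What the authors deposited is a single table of whole-number counts by gene, and the submitters' processing notes name STAR, FastQC, edgeR and GRCh38 without versions or roles. The counting program and its use of strand are not given in the sources used here. Gene starts in the deposited table count from 0 (17664 of 25543 genes matched to RefSeq began 1 base later), so 1 was added. A further 5 genes had no symbol (0.000814% of counts) and were not used.

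The tests ran in edgeR 4.0.16 (R 4.3.3): filterByExpr (minimum count 10, minimum total 15), TMM scaling, a robust quasi-likelihood fit with group as the term, and Benjamini-Hochberg adjustment over all tested genes, with calls at an adjusted p under 0.05. The prior count was 2 for log2 fold changes. Intervals by edgeR were centred on these values, with the SE taken from a fit with a prior count of 0.125, so they need not match the test exactly. Scripts were tested on simulated data. Levels per kilobase used the union of GENCODE 29 basic exons. Promoter windows came from RefSeq GRCh38.p14.

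Members and lists were chosen with earlier results of these data known. Named were all 8 members, their partner RNAs and each member's nearest profile. In each of 3 kidney lists the 3 genes with the smallest p and the 3 with the highest mean CPM were also named. A gene of the list of renal regulators is not reported here and was left out of that list. Both groups carry replicate numbers 1 to 3 in their titles, which are not said to mark a shared day or batch. Same-numbered libraries deviated together (correlation of deviations 0.46, 0.40 and 0.65 across genes, which are not independent), above the minimum of 0.1. Copper 1 with control 2 and copper 2 with control 1 also correlated, at 0.32 and 0.27, while replicate 3 with an unlike number gave -0.56 to -0.45, so mainly replicate 3 is told apart by number. The replicate block is given where it matters. Within groups the lowest chi-square was 5.04 per degree of freedom, so no library was a duplicate within sampling noise. Alternatives were other scalings and filters, DESeq2 1.42.0, limma-voom (limma 3.58.1), a batch term for replicate 3, and each library left out.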

Additional observations from a re-analysis of the deposited data

How the results depend on the processing

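None of the 6 tested members was called under any of the 18 alternatives to the fit with group only, nor in the 4 variants of the blocked fit. The replicate block changed no call among the 27 genes tabulated under each alternative, which leave out the nearest-profile genes. Over these alternatives, 469 of 486 results on those 27 genes kept direction and call and 17 reversed, 2 of them for members. Against 0 genes called among all tested, DESeq2 called 27, the fit with no filter 12, the replicate block 22, the term that set replicate 3 apart as a batch 35, and replicates 1 and 2 alone 111. The count ran from 0 to 15 with each library left out, 15 only without copper replicate 3. With the block it was 59 by DESeq2 and 74, 77 and 912 without replicates 1, 2 and 3. Members without overlap between groups numbered 5 in replicates 1 and 2 alone, where 44.1% of all tested genes did not overlap. They numbered from 2 to 5 with each library left out, against 14.8% to 33.3% of all tested genes, and 5 without control replicate 3, against 20.0%. With no filter the number was 3 (9.53% of all genes), through HNF4A at 0 to 2 counts.

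With each library left out, the log2 fold change ranged from -0.164 to 0.0582 for WT1, -0.486 to 0.0617 for CDH6, -0.252 to 0.0537 for WT1-AS, -0.317 to 0.218 for GFRA1, -0.255 to 0.0545 for SYNPO, -0.118 to 0.147 for DPP4 and -0.0961 to 0.347 for SLC4A4. GFRA1 was at 0.0303 in replicates 1 and 2 alone. DPP4, near 0, was at -0.0161 with no filter, -0.00244 with limma-voom, -0.00151 with the replicate block and -0.00535 with the batch term. For these reversals the cause was not tested. PAX2 kept a positive value throughout, from 0.237 to 0.418, with edgeR, DESeq2 or limma adjusted p from 0.327 to 1.00, and so did LHX1, from 0.224 to 0.417, with adjusted p from 0.317 to 1.00. The median of all tested genes was at most 0.0325 on the log2 scale under any scaling tried. With 1 library left out, the value moved by over 1.5 times for 21 of the 27 genes, and did not for LHX1, LHX1-DT, MEIS1, HOXA11, VCAM1 and EPCAM. Depth leaves HNF4A and EMX2 unmeasured.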
